A study of Mus musculus with 4 samples.

Results

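The genes described here are 45 genes of the sarcomere, its anchoring structures and the differentiated muscle fibre, among 19751 genes that the probes of the array could be named for. They were taken by name from the known machinery of muscle and fall into 7 roles: 13 genes of the thick filament, 11 of the thin filament, 6 of the Z-disc and desmin, 5 of titin, the M-band and ankyrin repeat proteins, 4 of the dystrophin complex with caveolin, 4 of the neuromuscular junction and 2 of energy and oxygen supply. Their 65 probes were found through the RefSeq transcript each probe was designed on. The sarcomere is the contractile unit of striated muscle, in which myosin thick filaments pull on actin thin filaments that are anchored at the Z-disc. Myoblasts are the mononucleated precursors of muscle fibres, and most genes of the contractile apparatus are switched on when myoblasts leave the cell cycle and fuse into myotubes. Cultures of C2C12, a myoblast line derived from mouse satellite cells, can nonetheless hold some transcripts of this programme before fusion.

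RNA was measured from 4 control cultures and 4 cultures exposed to palmitate, a saturated fatty acid, at 0.1 mmol/l for 48 h, all of them C2C12 myoblasts taken on day 3 of proliferation. By the treatment protocol, control and palmitate cultures both received 5% serum medium with ethanol and albumin free of fatty acids, whereas the label of the control channel reads 10%HS. On each of the 4 two-colour Agilent arrays, the RNA of 1 control culture was labelled with cyanine-3 and the RNA of 1 palmitate culture with cyanine-5. Since the dyes were never exchanged, palmitate and dye cannot be told apart in these ratios. If the label of the control channel holds, the medium differed too and cannot be told apart from palmitate either. The labels call the arrays biological replicates 1 to 4, and the p-values below measure the spread between these arrays. The log2 ratio of palmitate over control is positive where a gene was higher with palmitate. Replicate 1 stood apart from the rest. Over all tested genes, its log2 ratios had correlations of 0.14, -0.10 and -0.17 with replicates 2, 3 and 4, while replicates 2 to 4 correlated with each other at 0.70 to 0.84.

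The labelled cell type was compared with marker genes. Of 8 myoblast markers, 7 were well above background in the control channel on every array, and Pax7, a satellite cell marker, was not. Of 7 myotube markers, 5 were. Of 6 adipocyte markers, Fabp4 alone was, and Adipoq, Plin1, Lep and Retn were not well above background in any culture. Of 5 fibroblast markers and of 5 markers of macrophages and endothelium, 2 each were.

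The control myoblasts held transcripts of most of these muscle genes. A gene was counted as detected when at least 1 of its probes was well above background, by the scanner software's flag, on 4 of 4 arrays. In the control channel 37 of the 45 genes (82.2%) were detected, against 64.4% of all named genes on the array. Among genes with a single probe the shares were 25 of 32 (78.1%) and 59.3%. All 11 thin filament genes, all 5 genes of titin, the M-band and ankyrin repeat proteins and all 4 neuromuscular junction genes were detected in control cells. So were 10 of 13 thick filament genes, 4 of 6 genes of the Z-disc and desmin, 2 of 4 of the dystrophin complex and caveolin, and 1 of 2 of energy and oxygen supply. These shares describe mixed cultures, in which a few cells with much of a transcript and many cells with little of it cannot be told apart. Not every probe of a detected gene passed. Ttn was detected through 1 of its 4 probes, and its others passed on 0, 1 and 0 control arrays. The dimmer probes of Myh8 and Mybpc1 were well above background in neither channel of any array. Those of Myl1 and Neb passed on 3 and 1 control arrays.

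The 8 genes not detected on every control array came from 4 of the 7 roles. Myh2, a fast myosin heavy chain, and Dmd, which encodes dystrophin, were well above background on 0 of 4 control arrays, and on 1 and 2 palmitate arrays. Actn2, the alpha-actinin that crosslinks thin filaments in the Z-disc, was well above background in neither channel of any array. Myl2 and Mylpf, regulatory myosin light chains of slow and fast fibres, passed on 1 control and 1 palmitate array each. Csrp3, a Z-disc protein, and Ckm, the creatine kinase of muscle, each passed on 1 control and 3 palmitate arrays. Cav3, the caveolin of muscle, passed on 2 control arrays and on all 4 palmitate arrays. In the palmitate channel 38 of the 45 genes were detected, which are the 37 and Cav3. The palmitate channel also had the larger share of all probes well above background, 61.9 to 70.7% against 57.6 to 64.0% over the arrays, and the part of this in the counts above was not tested.

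**Figure D1:**
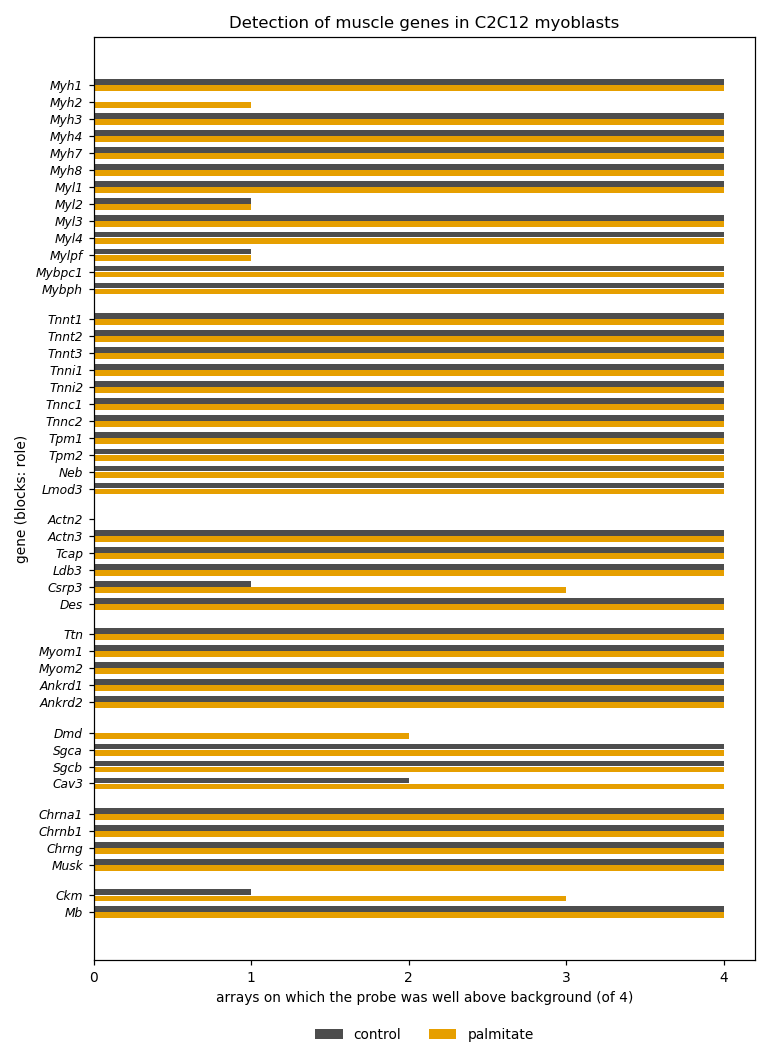
Number of the 4 arrays (x axis) on which the best probe of each of the 45 genes (y axis, in blocks by role) was well above background in the control channel (grey) and the palmitate channel (orange). Most genes reach 4 in both channels. Actn2 has no bar, and Csrp3, Ckm, Cav3, Dmd and Myh2 have longer palmitate bars than control bars.

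A ratio was tested for 38 of the 45 genes, those with a probe whose signal, in 1 channel or both, was well above background on every array, each represented by its brightest such probe. Cav3 entered through the palmitate channel alone, and so did a dimmer probe of Neb. The 7 genes without a test were Myh2, Myl2, Mylpf, Actn2, Csrp3, Dmd and Ckm, and no fold is given for them. None of the 38 genes had an adjusted p under 0.05 in limma, and over all probes 0 of 24169 (0%) passed, with 6342 at an unadjusted p under 0.05. The lowest adjusted p was 0.113 among the muscle genes and 0.0622 over all probes. At an unadjusted p under 0.05, 8 muscle genes were higher with palmitate (14% of all 13712 tested genes were) and 2 were lower (14.1% of all). The 10 together are 26.3% of the 38, against 28.1% of all tested genes, so the share of called muscle genes was near the background. With median centring in place of loess, the split was 8 higher (20.8% of all genes were) and 6 lower (16.4% of all). The methods' t-test gave 7 higher (9.71% of all genes) and 1 lower (11.7%) at the unadjusted threshold and 0 after adjustment (0.0511% of all genes). A mean above 0 was found for 26 of 38 (68.4%), against 50.7% of all genes, and the median log2 ratio was 0.085 against 0.0049. Where the normexp background model was fitted to every spot, 22 of the 38 (57.9%) were above 0.

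The differences were small. By the brightest probe of each gene, mean log2 ratios ran from -0.26 (Tcap) to 0.56 (Tpm1). A mean fold of 1.6 or more in either direction was found for 0 of 38 genes and for 442 of all tested genes (3.22%). The median absolute log2 ratio was 0.13 for the muscle genes and 0.16 for all genes, with a median SD over the arrays of 0.20 for both. For 36 of the 38 genes the 95% interval of the log2 ratio from limma lay within 1.6-fold either way, as it did for 81.6% of all genes. The exceptions were Tpm1 and Ankrd1. With the processed signals of the scanner software in place of normexp and loess this held for 27 genes, and with median centring for 25. On single arrays the median of the muscle genes was 0.10, 0.11, 0.070 and 0.18 for replicates 1 to 4, and 23 of 38, 21 of 37, 25 of 38 and 27 of 38 genes were above 0.

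**Figure D2:**
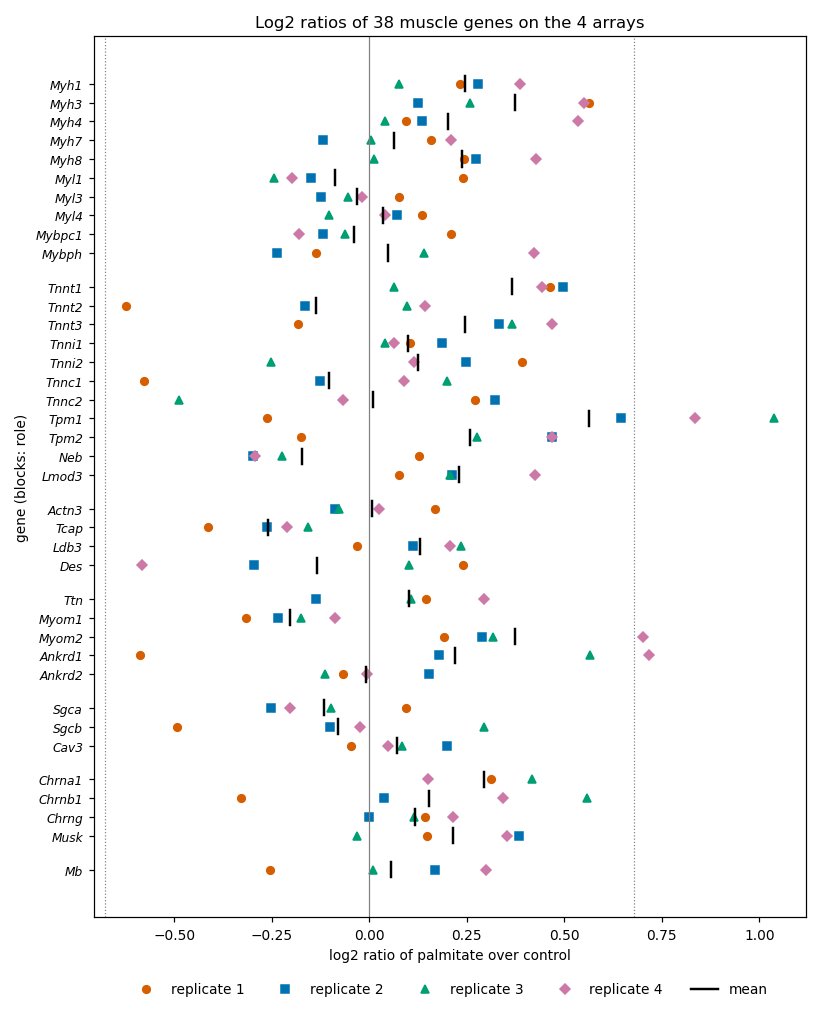
Palmitate over control on the log2 scale (x axis) for the 38 tested genes (y axis, in blocks by role) on each of the 4 arrays (coloured points) with the mean (black bar). Dotted lines mark a fold of 1.6. Means lie between -0.26 and 0.56, and replicate 1 lies on the other side of 0 from the rest for several thin filament genes, among them Tpm1, Tpm2 and Tnnt3.

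Among thick filament genes, the myosin heavy chains of the fast and developmental gene cluster on chromosome 11 were all above 0 where they could be tested. This cluster holds Myh3 (embryonic), Myh2 and Myh1 (fast), Myh4 (the fastest) and Myh8 (perinatal), next to each other in this order among protein-coding genes. Since these neighbours were followed together, the 250 bases before their RefSeq transcription starts (GRCm38.p6) are given, with 5 muscle elements in capitals, searched on both strands: the E-boxes CAGCTG and CANNTG, which myogenic factors bind and of which CAGCTG is also a match to CANNTG, the MCAT element CATTCC of TEAD factors, the CArG box of serum response factor and the MEF2 site.
Myh3 (chr11:67078050-67078299, plus strand): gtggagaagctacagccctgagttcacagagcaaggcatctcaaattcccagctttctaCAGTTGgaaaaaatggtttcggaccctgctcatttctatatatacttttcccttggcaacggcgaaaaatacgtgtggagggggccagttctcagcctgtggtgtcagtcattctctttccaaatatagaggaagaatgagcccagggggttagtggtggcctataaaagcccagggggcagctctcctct
Myh2 (chr11:67170777-67171026, plus strand): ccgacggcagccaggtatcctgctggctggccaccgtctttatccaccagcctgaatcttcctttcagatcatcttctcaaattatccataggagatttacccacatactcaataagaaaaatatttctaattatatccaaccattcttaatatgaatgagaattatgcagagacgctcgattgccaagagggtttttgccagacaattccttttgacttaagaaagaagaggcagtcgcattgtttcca
Myh1 (chr11:67199852-67200101, plus strand): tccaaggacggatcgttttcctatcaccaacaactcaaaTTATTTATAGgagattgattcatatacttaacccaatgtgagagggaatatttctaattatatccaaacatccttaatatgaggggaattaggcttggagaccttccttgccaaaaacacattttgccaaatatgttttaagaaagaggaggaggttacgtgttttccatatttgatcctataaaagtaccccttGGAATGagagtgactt
Myh4 (chr11:67237562-67237811, plus strand): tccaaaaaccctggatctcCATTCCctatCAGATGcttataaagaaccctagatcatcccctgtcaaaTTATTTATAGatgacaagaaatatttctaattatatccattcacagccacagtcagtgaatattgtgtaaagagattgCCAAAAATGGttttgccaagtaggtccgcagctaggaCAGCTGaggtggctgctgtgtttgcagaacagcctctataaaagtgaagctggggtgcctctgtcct
Myh8 (chr11:67276874-67277123, plus strand): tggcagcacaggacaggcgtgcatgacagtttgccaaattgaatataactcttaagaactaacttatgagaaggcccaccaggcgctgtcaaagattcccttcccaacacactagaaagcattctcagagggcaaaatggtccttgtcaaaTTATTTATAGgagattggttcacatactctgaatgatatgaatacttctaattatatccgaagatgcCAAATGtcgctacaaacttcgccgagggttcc

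Myh1, Myh4 and Myh8 held the same 10 letters of a MEF2 site, starting 211, 182 and 99 bases before the start, and the windows of Myh3 and Myh2 held no such match. Myh4 also held a CArG box 104 bases and a CAGCTG E-box 67 bases before the start. Over the RefSeq windows of 250 bases before to 50 after a start, a MEF2 site was in 5 of 47 windows of the muscle genes (10.6%) and in 3.19% of all 32851 windows, and a CArG box in 6 of 47 (12.8%) and 1.63%. CAGCTG was found in 19 of 47 (40.4%) against 16.3%, CANNTG in 85.1% against 72.3% and CATTCC in 13 of 47 (27.7%) against 14.7%. Windows were matched for 38 of the 45 genes. Beyond the myosins, a MEF2 site was in a window of Dmd and of Ttn. A match is a run of letters and not a measured site.

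Each of the 4 cluster genes that could be tested was higher with palmitate on every array. Myh3 had log2 ratios of 0.56, 0.13, 0.26 and 0.55 on replicates 1 to 4. The mean was 0.37 ± 0.22 (SD, n = 4, adjusted p = 0.114 from limma), with a level of 10.17 ± 0.15 in control and 10.54 ± 0.13 in palmitate cultures (log2 normalized intensity, SD, n = 4). Replicates 1 and 4 were the high ones and replicate 2 the low one. The dimmer Myh3 probe had a mean of 0.33 ± 0.23 (SD, n = 4) and was also higher on 4 of 4 arrays. Myh1 had ratios of 0.23, 0.28, 0.077 and 0.39, and a mean of 0.24 ± 0.13 (SD, n = 4, adjusted p = 0.155). Myh8 had 0.24, 0.27, 0.012 and 0.43, with a mean of 0.24 ± 0.17 (SD, n = 4, adjusted p = 0.184). Myh4 had 0.094, 0.14, 0.040 and 0.54, with a mean of 0.20 ± 0.23 (SD, n = 4, adjusted p = 0.284). In these last 3 genes replicate 3 was the lowest and replicate 4 the highest. Their means were above 0 in all 16 alternatives tried, and so was that of Myh3. Since every array was above 0 for these genes, leaving out or weighting arrays could not turn the sign. The intensity trend, the fit without pairing and the probe filters left the means as they were. Averaging over the tested probes of a gene could change Myh3 alone, and the deposited table was made from the processed signals. Most of the 16 alternatives therefore could not turn the sign. Over the alternatives, the lowest means were 0.035 for Myh1, 0.31 for Myh3, 0.090 for Myh4 and 0.16 for Myh8. Close relatives such as these can share probe signal, and whether these probes tell them apart was not tested. An exact sign-flip test over 4 arrays cannot reach a two-sided p under 0.05 for any gene.

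The remaining thick filament genes had ratios on both sides of 0. Myh7, the slow and cardiac heavy chain on chromosome 14, had 0.16, -0.12, 0.0044 and 0.21 (mean 0.063 ± 0.15, SD, n = 4). Myl1, a fast essential light chain, had 0.24, -0.15, -0.24 and -0.20 (mean -0.087 ± 0.22, SD, n = 4), with replicate 1 alone above 0. Myl3, the slow and ventricular essential light chain, had 0.077, -0.12, -0.055 and -0.019 (mean -0.030 ± 0.084, SD, n = 4), also with replicate 1 alone above 0. The embryonic and atrial light chain Myl4 had 0.14, 0.072, -0.10 and 0.040 (mean 0.036 ± 0.10, SD, n = 4). Mybpc1, the slow myosin-binding protein C, had 0.21, -0.12, -0.063 and -0.18 (mean -0.038 ± 0.17, SD, n = 4). Its relative Mybph had -0.14, -0.24, 0.14 and 0.42 (mean 0.048 ± 0.30, SD, n = 4). For these 6 genes the differences between control and palmitate cultures were smaller than the spread over the arrays.

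In the thin filament, troponin and tropomyosin form the calcium switch that uncovers actin for myosin. Tnnt1, the slow troponin T (chr7:4504569-4515975, GRCm38.p6), had the lowest adjusted p of the muscle genes. Its log2 ratios were 0.46, 0.50, 0.063 and 0.44, with a mean of 0.37 ± 0.20 (SD, n = 4, adjusted p = 0.113 from limma) and levels of 10.01 ± 0.081 in control and 10.38 ± 0.19 in palmitate cultures (log2 normalized intensity, SD, n = 4). Replicates 1, 2 and 4 lay close together, and replicate 3 lay near 0. The fast troponin T, Tnnt3, had -0.18, 0.33, 0.37 and 0.47 (mean 0.25 ± 0.29, SD, n = 4, adjusted p = 0.263). Its dimmer probe had a mean of 0.15 ± 0.21 (SD, n = 4), and in both probes replicate 1 alone was below 0. Tnnt2, the cardiac and embryonic troponin T, had -0.62, -0.17, 0.096 and 0.14 (mean -0.14 ± 0.35, SD, n = 4).

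The inhibitory and calcium-binding troponins did not show one direction. Tnni1, slow troponin I, had 0.11, 0.19, 0.041 and 0.063 and was higher on every array by a small amount (mean 0.099 ± 0.063, SD, n = 4, adjusted p = 0.455). With median centring in place of loess its mean was -0.21. Tnni2, fast troponin I, had 0.39, 0.25, -0.25 and 0.11 (mean 0.12 ± 0.28, SD, n = 4). The slow and cardiac troponin C, Tnnc1, had -0.58, -0.13, 0.20 and 0.089 (mean -0.10 ± 0.34, SD, n = 4), an order over the arrays like that of Tnnt2, with replicate 1 lowest. Tnnc2, fast troponin C, had 0.27, 0.32, -0.49 and -0.068 (mean 0.010 ± 0.37, SD, n = 4).

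Tropomyosin runs along actin, and in both of its genes replicate 1 had the opposite sign to the rest with the brightest probe. Tpm1 (chr9:67022590-67049672, GRCm38.p6) had ratios of -0.26, 0.64, 1.04 and 0.84 with its brightest probe. The mean was 0.56 ± 0.57 (SD, n = 4, adjusted p = 0.163 from limma). With replicate 1 left out it was 0.84 (adjusted p = 0.00257 from limma), a setting in which 30.3% of all tested genes passed 0.05. Replicate 1 was the one array below 0. Tpm1 is spliced into many isoforms, and its 5 tested probes were designed on different transcripts in part. A pair of probes for the same transcript had means of 0.29 ± 0.14 and 0.28 ± 0.12 (SD, n = 4 each) and were higher on 4 of 4 arrays, replicate 1 included. Of the remaining probes, 1 had -0.12 ± 0.18 and the other 0.25 ± 0.39 (SD, n = 4 each). The probes of this gene therefore lay on both sides of 0. Tpm2, beta-tropomyosin, had -0.17, 0.47, 0.28 and 0.47 with its brightest probe (mean 0.26 ± 0.30, SD, n = 4, adjusted p = 0.253), and 0.31 ± 0.35 (SD, n = 4) with the other. In both Tpm2 probes replicate 1 alone was below 0.

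The thin filament also holds proteins that set its length. Lmod3, leiomodin 3, which starts new actin filaments, had 0.076, 0.21, 0.21 and 0.42 and was higher on every array (mean 0.23 ± 0.14, SD, n = 4, adjusted p = 0.178 from limma). Neb encodes nebulin, a giant protein along the thin filament. Its brightest probe had 0.13, -0.30, -0.22 and -0.29 (mean -0.17 ± 0.20, SD, n = 4), and its other probe, of the same transcript, had -0.16, 0.0093, 0.22 and 0.24 (mean 0.080 ± 0.19, SD, n = 4). On all 4 arrays the Neb probes had opposite signs, but the dimmer one was well above background on 1 of 4 control arrays and, like Cav3, was tested through the palmitate channel alone.

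**Figure D3:**
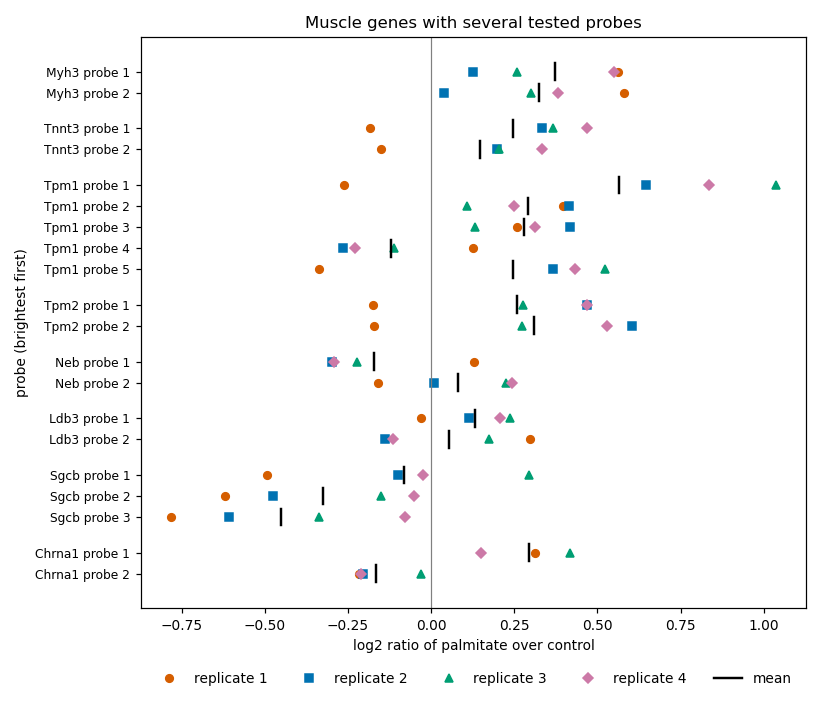
Palmitate over control on the log2 scale (x axis) for every tested probe of the 8 genes with several tested probes (y axis, brightest probe of a gene first) on the 4 arrays (coloured points), with the mean (black bar). The probes of Myh3, Tnnt3 and Tpm2 follow each other, while the means of the probes of Tpm1, Neb and Chrna1 lie on both sides of 0.

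At the Z-disc the one gene of this role at an unadjusted p under 0.05 was lower with palmitate. Tcap encodes telethonin, which caps the end of titin (chr11:98383811-98384953, GRCm38.p6). It had log2 ratios of -0.41, -0.26, -0.16 and -0.21, a mean of -0.26 ± 0.11 (SD, n = 4, adjusted p = 0.136 from limma) and levels of 7.25 ± 0.050 in control and 6.99 ± 0.15 in palmitate cultures (log2 normalized intensity, SD, n = 4). Every array was below 0, replicate 1 the most. Actn3, the fast-fibre alpha-actinin, had 0.17, -0.088, -0.077 and 0.025 (mean 0.0070 ± 0.12, SD, n = 4). Ldb3, which binds alpha-actinin, had -0.030, 0.11, 0.24 and 0.21 (mean 0.13 ± 0.12, SD, n = 4), and its other probe had 0.055 ± 0.22 (SD, n = 4). Des, the muscle intermediate filament desmin that ties Z-discs to each other, had 0.24, -0.30, 0.10 and -0.58 (mean -0.13 ± 0.38, SD, n = 4), with replicates 2 and 4 below 0.

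The M-band genes Myom1 and Myom2, both of which encode proteins that crosslink thick filaments in the middle of the sarcomere, differed in direction. Myom2 (chr8:15057653-15133420, GRCm38.p6) had log2 ratios of 0.19, 0.29, 0.32 and 0.70, and a mean of 0.37 ± 0.22 (SD, n = 4, adjusted p = 0.116 from limma). Its level was 10.86 ± 0.027 in control and 11.24 ± 0.25 in palmitate cultures (log2 normalized intensity, SD, n = 4), and on each array the palmitate culture was the higher. Myom1 (chr17:71003332-71126856, GRCm38.p6) had -0.31, -0.23, -0.17 and -0.089, and a mean of -0.20 ± 0.095 (SD, n = 4, adjusted p = 0.188). This gene was dim, with a level of 6.77 ± 0.12 in control and 6.57 ± 0.21 in palmitate cultures (log2 normalized intensity, SD, n = 4). The untested probe of Ckm had 6.51 in control. Over the alternatives tried, the mean of Myom1 lay between -0.71 and -0.14. Over the 4 arrays the ranges of the 2 genes did not overlap, and the difference between them was not tested. Without replicate 1, where 30.3% of all tested genes passed an adjusted p of 0.05, the mean of Myom2 was 0.44 (adjusted p = 0.0256 from limma).

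Titin, the spring that reaches from the Z-disc to the M-band, and the ankyrin repeat proteins that bind it gave no common direction. Ttn had 0.15, -0.14, 0.11 and 0.29 (mean 0.10 ± 0.18, SD, n = 4). Ankrd1, a stretch-responsive protein that also acts in the nucleus, had -0.59, 0.18, 0.57 and 0.72 (mean 0.22 ± 0.58, SD, n = 4, adjusted p = 0.541 from limma). On replicate 1 alone it was below 0. With that array left out, 30.3% of all tested genes passed an adjusted p of 0.05, and the mean of Ankrd1 was 0.49 (adjusted p = 0.0233 from limma). Ankrd2, its relative, had -0.067, 0.15, -0.11 and -0.0044 (mean -0.0076 ± 0.12, SD, n = 4). Ankrd1 and Tpm1 were the 2 genes whose values spanned 1 or more on the log2 scale between arrays.

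The dystrophin complex links the cytoskeleton of the fibre to the matrix outside it. Sgca, alpha-sarcoglycan, had 0.096, -0.25, -0.099 and -0.20 (mean -0.11 ± 0.15, SD, n = 4). Sgcb, beta-sarcoglycan, had -0.49, -0.10, 0.29 and -0.025 with its brightest probe (mean -0.081 ± 0.32, SD, n = 4). Its 2 dimmer probes were lower on 4 of 4 arrays, with means of -0.32 ± 0.27 and -0.45 ± 0.31 (SD, n = 4 each). In limma their unadjusted p was 0.033 and 0.0125 and their adjusted p 0.159 and 0.116. They were dimmer by little, with control levels of 11.37 and 11.18 against 11.32 for the brightest probe (log2 normalized intensity). All 3 Sgcb probes were lowest on replicate 1. Cav3 had -0.046, 0.20, 0.084 and 0.047 (mean 0.071 ± 0.10, SD, n = 4). The mean of each of these 3 genes, by the brightest probe, lay within the spread over the arrays. The means of the 2 dimmer Sgcb probes lay beyond their SD.

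At the neuromuscular junction, all 4 genes had means above 0 by their brightest probe, except that Chrng had -0.24 with median centring in place of loess. Chrna1, the alpha subunit of the acetylcholine receptor, had 0.31, 0.42 and 0.15 on replicates 1, 3 and 4 with its brightest probe. The spot of replicate 2 was marked as an outlier by the scanner software and left out, so the mean of 0.29 ± 0.13 (SD, n = 3, adjusted p = 0.170 from limma) rests on 3 arrays. The dimmer Chrna1 probe, of the same transcript, had -0.22, -0.20, -0.032 and -0.21 (mean -0.17 ± 0.089, SD, n = 4, adjusted p = 0.253), so that the probes of this gene lay on opposite sides of 0 on every array where both were measured. With median centring the dimmer probe had a mean of 0.065. Chrnb1, the beta subunit, had -0.33, 0.037, 0.56 and 0.34 (mean 0.15 ± 0.39, SD, n = 4), and Chrng, the subunit of the fetal receptor, had 0.14, -0.00075, 0.11 and 0.21 (mean 0.12 ± 0.090, SD, n = 4). Musk, the receptor kinase that gathers acetylcholine receptors at the synapse, had 0.15, 0.38, -0.030 and 0.35 (mean 0.21 ± 0.19, SD, n = 4, adjusted p = 0.235). Of the genes of energy and oxygen supply, Mb, which encodes myoglobin, had -0.25, 0.17, 0.010 and 0.30 (mean 0.056 ± 0.24, SD, n = 4).

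**Figure D4:**
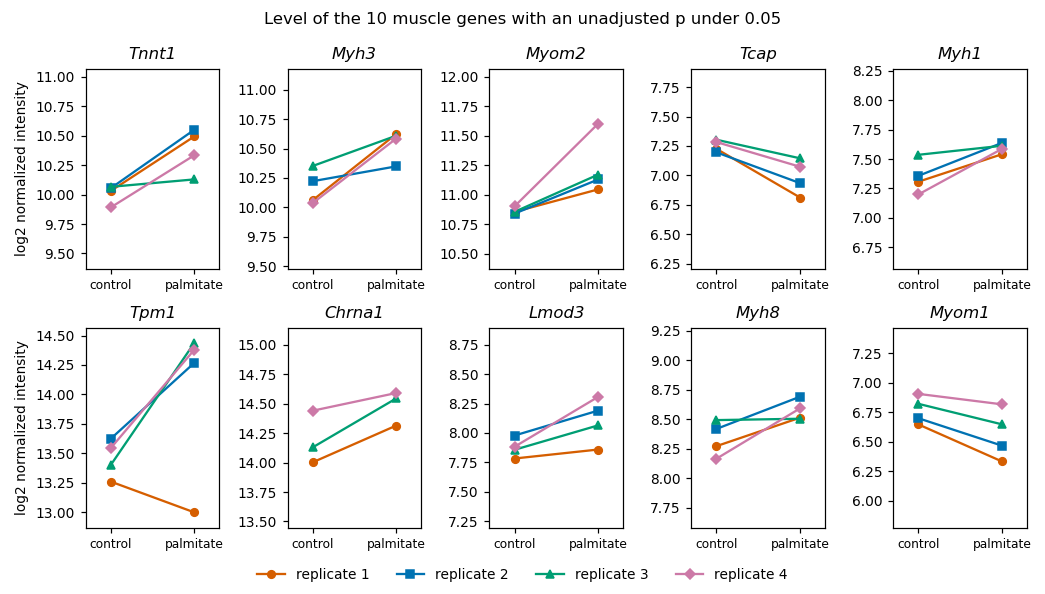
Log2 normalized intensity (y axis, each panel spanning the same range) of the control and palmitate cultures on each array, joined by a line per array, for the 10 genes with an unadjusted p under 0.05, in order of p. The lines of Tcap and Myom1 run downward on every array, those of Tpm1 upward on 3 arrays and downward on replicate 1, and Chrna1 has 3 arrays.

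Counting directions, 9 of the 38 genes were higher on every measured array (16.5% of all genes were), 2 were lower on every array (16.3%), and 27 had both signs. The 9 were Myh1, Myh3, Myh4, Myh8, Tnnt1, Tnni1, Lmod3, Myom2 and Chrna1. Replicate 1 and the mean of replicates 2 to 4 had opposite signs for 21 of 38 genes (55.3%), against 47.4% of all genes. Across the muscle genes, which are not independent replicates, replicate 1 had correlations of 0.18, -0.36 and -0.074 with replicates 2, 3 and 4, and replicates 2 to 4 had 0.39 to 0.70 with each other. Replicate 1 was the lowest array for 15 of the genes and the highest for 10.

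Without replicate 1, 5 of the 38 muscle genes (13.2%) passed an adjusted p of 0.05 in limma, below the 30.3% of all tested genes that did. All 5 were higher with palmitate (16% of all genes passed in this direction, 14.3% in the other). They were Tpm1 (0.84), Ankrd1 (0.49), Myom2 (0.44), Tpm2 (0.40, adjusted p = 0.0169) and Tnnt3 (0.39, adjusted p = 0.0166). In 4 of the 5, all but Myom2, replicate 1 had the opposite sign. When limma instead gave each array a weight from its agreement with the others, replicate 1 had a weight of 0.335 and replicates 2 to 4 had 1.15 to 1.69. Then 8 genes (21.1%) passed, below the 32.1% of all tested genes that did: Lmod3, Myh1, Myh3, Myom2, Tnnt1, Tnnt3, Tpm1 and Tpm2. Genes such as Myh3 and Tnnt1, which were higher on replicate 1 too, thus passed with the weights and not when the array was left out.

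**Figure D5:**
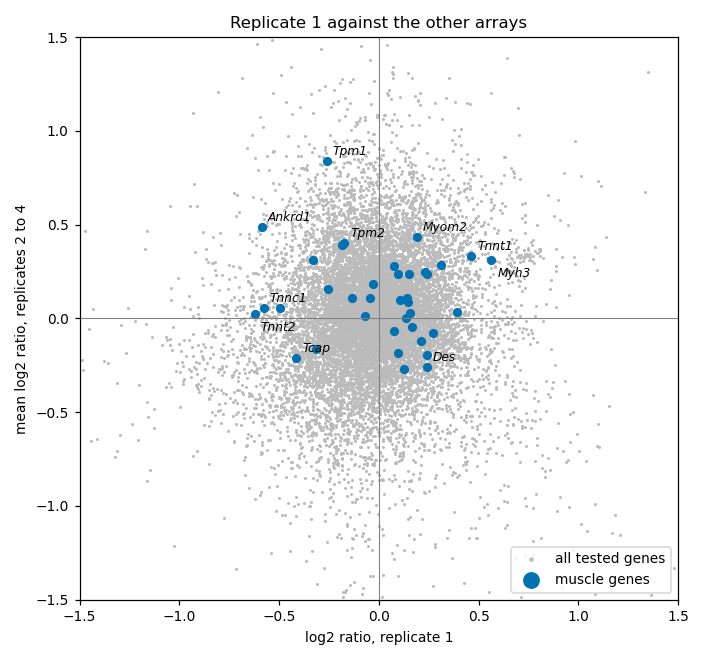
Log2 ratio on replicate 1 (x axis) against the mean log2 ratio of replicates 2 to 4 (y axis) for all tested genes (grey) and the 38 muscle genes (blue, with some named); 98 genes beyond 1.5 on either axis are not shown. Tpm1, Tpm2 and Ankrd1 lie at the upper left, with opposite signs, and Myh3, Tnnt1 and Myom2 at the upper right.

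Related genes outside the 45 were read from lists by role. Of 28 tested other sarcomere genes, 5 were higher and 1 was lower at the unadjusted threshold of 0.05, with a median log2 ratio of -0.038. The one with the lowest p was Synpo2l, a Z-disc protein, at 0.43 ± 0.22 (SD, n = 4, adjusted p = 0.102 from limma). Of 20 tested genes around the dystrophin complex and caveolae, 7 were higher and 1 lower, with a median of 0.15. Among them Cavin1 and Cav1, which build caveolae, had 0.60 ± 0.47 and 0.58 ± 0.50 and Dag1, dystroglycan, had -0.63 ± 0.52 (SD, n = 4 each), with adjusted p of 0.121, 0.134 and 0.124. A dimmer Cavin1 probe had a mean of -0.45. Of 11 tested other junction genes 1 was higher, Ncam1, a cell adhesion molecule, at 0.37 ± 0.15 (SD, n = 4). The counts of these lists stand beside background shares of 14% higher and 14.1% lower among the 13712 genes tested.

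Other intermediate filament genes and the contractile genes of nonmuscle and smooth muscle cells were read in the same way. They stand beside the same 14% higher and 14.1% lower of all tested genes. Of 9 tested intermediate filament genes 1 was higher, Vim, which encodes vimentin, with 0.34, 1.28, 1.27 and 0.98 (mean 0.97 ± 0.44, SD, n = 4, adjusted p = 0.0916 from limma). Of 20 tested contractile genes of nonmuscle and smooth muscle cells, 3 were higher and 9 lower, with a median of -0.20. Myh9, a nonmuscle myosin heavy chain, had 0.87 ± 0.43, and Tagln and Actg2, both of smooth muscle, had -0.47 ± 0.15 and -0.71 ± 0.42 (SD, n = 4 each). Without replicate 1, Vim, Myh9, Tagln and Actg2 passed with adjusted p of 0.000775, 0.000915, 0.00968 and 0.00134 from limma. So did 30.3% of all tested genes, and these 4 were named for their low p.

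Of 15 tested genes of fusion and late differentiation, 3 were higher and 1 lower (median -0.0048). Cox6a2 had the lowest p of these, with a mean of 0.51 ± 0.25 (SD, n = 4, adjusted p = 0.0951 from limma). The lower one was Cox7a1, below 0 on every array, with a mean of -0.31 ± 0.17 (SD, n = 4, adjusted p = 0.126 from limma). Of 16 tested myogenic regulators, 5 were higher and 0 lower (median 0.10). Of all tested genes, 14% were higher and 14.1% lower. Myog, the factor that drives terminal differentiation, was higher on 4 of 4 arrays with 0.29, 0.50, 0.23 and 0.47 (mean 0.37 ± 0.14, SD, n = 4, adjusted p = 0.0996 from limma). It is also one of the myotube markers, of which 2 of 6 tested were higher, Myog and Myh3, itself one of the 45 genes, and 0 were lower at that threshold. The myotube markers Mymk and Acta1 had means of -0.094 ± 0.25 and -0.080 ± 0.20 (SD, n = 4 each). Of 8 tested myoblast markers 2 were also higher and 0 lower, Myod1 at 0.28 ± 0.18 and Myf5 at 0.55 ± 0.59 (SD, n = 4 each). Myf5 had -0.042, 1.14, 0.13 and 0.98 on replicates 1 to 4. The myoblast markers Met and Des had means below 0, of -0.15 ± 0.31 and -0.13 ± 0.38 (SD, n = 4 each). Vcam1, Pax7, Itga7 and Cdh15 had means of 0.18, 0.089, 0.061 and 0.0088. Whether a different share of differentiating cells had a part in the ratios of the muscle genes was not tested.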

How the data were processed

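The 4 two-colour arrays (Agilent Feature Extraction 10.7.3.1, per the submitters' processing notes) each paired 1 control with 1 palmitate culture. The authors deposited uncorrected intensity (the median of each spot and of its local background), processed intensity with background and dye already adjusted by the scanner software, and a table of log2 ratios made from the latter. Background was removed by normexp (offset 50), the dyes were normalized within each array by loess, and channel levels by Aquantile, with limma 3.58.1 and statmod 1.5.0 in R 4.3.3. Spots whose local background was over 5 times the median of the array and channel (10 spots on replicate 4, 0 on the others, none of a muscle gene) were left out of the normexp fit, a choice made after seeing the data. Spots marked as outliers were dropped and spots of a probe averaged.

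Of 39429 probes, 26055 were named through RefSeq accessions (GRCm38.p6) and 13374 were not. The 24169 probes that were well above background on every array, in 1 channel or both, were tested with limma and Benjamini-Hochberg adjustment, pairing the channels of an array, and checked on simulated data. A gene is represented by its brightest tested probe. All 45 genes are named, and up to 3 of each further list, by lowest p. The genes and lists were chosen with earlier results of these data known. Alternatives changed the background correction, source of values, normalization, filters, variance model, test, pairing, probe and replicates. The share of probes well above background and the number of arrays limit the precision.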

Additional observations from a re-analysis of the deposited data

Results flagged for a closer look

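Among the muscle genes with a value on each of the 4 arrays, Tnnt1 had 1 array far from the rest. Replicate 3, at a log2 ratio of 0.063 against 0.44 to 0.50 on the others, lay at a gap of 0.876 of the gene's whole range. This was 1 of 37 genes examined. The dimmer Chrna1 probe also stood out, with replicate 3 at -0.032 against -0.22 to -0.20 on the others and a gap of 0.941 of the range, as 1 of 32 further probes and genes examined. Chance flags about 1 in 20 such groups.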

How the results depend on the processing

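Leaving out 1 replicate at a time gave between 0 and 2 muscle genes lower at an unadjusted p under 0.05 (2 with all arrays, 0 without replicates 2 and 4, 1 without replicate 3) and between 1 and 10 higher (8 with all arrays, 3 without replicate 2, 1 without replicate 4). The shares of all genes moved as well: higher were 14% with all arrays and 22.9%, 5.7%, 8.27% and 7.16% without replicates 1 to 4, and lower were 14.1% and then 20.5%, 6.16%, 10.2% and 8.45%. The count of muscle genes past an adjusted p of 0.05, 0 with all arrays, lay between 0 and 5 and reached 5 without replicate 1 (30.3% of all genes). The median log2 ratio, 0.085 with all arrays, lay between 0.046 and 0.10. Of the other settings, the processed signals and the deposited table each gave 1 lower and 5 higher muscle genes and a median of 0.157. With either, 12.4% of all genes were lower and 13.7% higher. Median centring gave 6 lower muscle genes (16.4% of all genes) and 2 past the adjusted p (Myom1 and Tcap, with 5.21% of all genes past it). Array weights gave 13 higher muscle genes (23.6% of all genes) and 8 past the adjusted p (32.1% of all genes). The intensity trend gave 5 higher muscle genes (14.1% of all genes). No background correction gave 1 lower (13.9% of all genes), and a filter on both channels 1 lower (14.6%). With the pairing of the channels left out (no replicate block), 1 was lower (13% of all genes) and 5 were higher (11.1%). The methods' t-test, also unpaired, gave 1 lower (11.7%). The normexp fit on all spots, chosen after seeing the data, gave 0 lower (13.4% of all genes) and 5 higher (10.9%). There 10 spots of bright local background had moved the background parameter of replicate 4 from -10.4 to -1100.6 in red. The causes of the other shifts were not tested.

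Over all probes, those with both an adjusted p under 0.05 and a fold of at least 1.6 numbered 0 with all arrays and 0 to 1840 with 1 replicate left out, the highest without replicate 1. They numbered 13 with the processed signals and with the deposited table, 946 with median centring, 1635 with array weights, 2 with the intensity trend, 3 under a coefficient of variation below 50%, 7 with no replicate block and 4 with the methods' t-test.

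Of 607 values recomputed for single muscle genes, 571 kept their sign and 36, of 16 genes, turned. The intensity trend, the filter on the coefficient of variation and the fit without pairing left the means as they were. Part of the 607 values therefore could not turn. Median centring turned 10 genes: Tnni1, the one of them with 1 sign on every array, to -0.21, and Myh7, Myl1, Mybph, Tnnt2, Des, Sgcb, Cav3, Chrng and Mb, which had both signs over the arrays. It also turned the dimmer Chrna1 probe to 0.065. The detection count stayed between 37 and 42 of 45 in every setting tried. Signal over background limited the comparison for the 7 genes not tested and for Cav3, dim in control.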
